A study of Mus musculus with 6 samples.

Results

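The genes described are 7 members of 2 families of plasma membrane ion pumps, followed in neurons of the mouse medial mammillary nucleus, which lies in the hypothalamus. They are the sodium-potassium pump beta subunits Atp1b1, Atp1b2 and Atp1b3 and the calcium pumps Atp2b1, Atp2b2, Atp2b3 and Atp2b4. They were taken by gene name from a deposited table of 55414 mouse genes, in which each name occurs once. All 7 passed the filter on low values and so are among the 11478 genes tested. The values are FPKM, fragments per kilobase of gene, scaled to library size, so levels of different genes are compared per length. The groups were 3 libraries of PV-positive neurons (PV 6, PV 7 and PV 8, after their titles), labelled through parvalbumin, and 3 of Drd2-positive neurons (Drd2 1, Drd2 2 and Drd2 3), labelled through the D2 dopamine receptor. All came from brain slices of male mice, digested with papain before fluorescent cells were drawn into glass electrodes. The sources used here give no driver line or reporter, no age and no number of cells or mice per library.

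The sodium-potassium pump exports sodium and imports potassium at the cost of ATP and so restores the gradients that action potentials run down. Its catalytic alpha subunit needs a beta subunit to fold and to reach the cell surface, and the beta isoform alters the pump's affinity for potassium. The plasma membrane calcium pumps expel calcium from the cytosol with high affinity. They are activated by calmodulin and work beside sodium-calcium exchangers.

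Promoters are shown for the members whose levels the results turn on and that have an entry in RefSeq's table, on build GRCm38.p6. That table holds 9 windows of 300 bases, each from 250 bases before to 50 after a start, for 5 of the 7 members; Atp1b2 and Atp2b3 have no entry. Capitals mark matches, on either strand, to the GC box GGGCGG, the E-box CACGTG, the TATA box TATAAA or the CRE core TGACGT. No letter string contains another of them. The outermost listed start of Atp2b2 (chr6:114042031-114042330, minus strand), that of Atp2b1 (chr10:98914392-98914691, plus strand), the listed start of Atp2b4 (chr1:133753698-133753997, minus strand), that of Atp1b1 (chr1:164458306-164458605, minus strand) and the outermost of Atp1b3 (chr9:96364382-96364681, minus strand) read as follows.
Atp2b2: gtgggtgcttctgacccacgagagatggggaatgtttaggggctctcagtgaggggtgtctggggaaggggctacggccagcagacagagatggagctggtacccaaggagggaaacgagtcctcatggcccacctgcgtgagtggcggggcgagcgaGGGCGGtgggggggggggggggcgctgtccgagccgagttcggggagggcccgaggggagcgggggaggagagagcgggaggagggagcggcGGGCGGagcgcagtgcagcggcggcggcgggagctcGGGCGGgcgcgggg
Atp2b1: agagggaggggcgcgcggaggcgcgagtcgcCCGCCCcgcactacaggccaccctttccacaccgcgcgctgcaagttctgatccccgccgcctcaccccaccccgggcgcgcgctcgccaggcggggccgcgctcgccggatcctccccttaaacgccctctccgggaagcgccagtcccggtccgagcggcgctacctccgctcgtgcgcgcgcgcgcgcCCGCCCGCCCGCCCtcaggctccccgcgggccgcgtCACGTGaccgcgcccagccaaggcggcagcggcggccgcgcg
Atp2b4: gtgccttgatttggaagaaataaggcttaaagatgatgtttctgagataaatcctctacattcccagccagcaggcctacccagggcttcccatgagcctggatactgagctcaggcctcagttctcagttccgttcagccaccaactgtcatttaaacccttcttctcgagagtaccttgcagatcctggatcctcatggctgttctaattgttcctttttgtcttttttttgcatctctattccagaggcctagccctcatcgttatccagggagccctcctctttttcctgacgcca
Atp1b1: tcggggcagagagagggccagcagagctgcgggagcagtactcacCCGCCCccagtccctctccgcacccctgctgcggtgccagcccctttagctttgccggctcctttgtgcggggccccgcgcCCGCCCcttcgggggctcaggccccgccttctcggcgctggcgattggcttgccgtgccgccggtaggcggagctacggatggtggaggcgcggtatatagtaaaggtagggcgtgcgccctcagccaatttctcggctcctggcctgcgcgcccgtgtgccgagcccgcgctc
Atp1b3: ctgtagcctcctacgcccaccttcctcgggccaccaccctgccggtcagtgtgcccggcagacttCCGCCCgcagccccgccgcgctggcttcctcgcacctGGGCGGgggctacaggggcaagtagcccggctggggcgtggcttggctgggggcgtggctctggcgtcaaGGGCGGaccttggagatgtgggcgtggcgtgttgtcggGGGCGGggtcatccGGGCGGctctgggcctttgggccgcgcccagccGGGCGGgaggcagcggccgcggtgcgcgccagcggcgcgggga

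The GC box was found in 35.7% of the 32851 mouse promoter windows of this length, the TATA box in 13.6%, the CRE core in 7.51% and the E-box in 7.15%. Among the windows shown, Atp1b3 held 6 GC boxes, Atp2b1 held 4, Atp2b2 held 3 and Atp1b1 held 2. The Atp2b4 window held none of these strings, and of those shown the Atp2b1 window alone held an E-box. Bases G and C made up 79.3% of the Atp2b1 window, 76.0% of that of Atp1b3, 72.7% of that of Atp2b2 and 71.0% of that of Atp1b1, against 47.7% for Atp2b4 and a median of 52.7% over all windows. The Atp2b4 start lies 47294 bases inside the GENCODE gene, the Atp2b2 start 533 bases inside and the Atp1b1 start at the gene's edge. The files do not say which start was used in either neuron class, and a match to these letters is a description only.

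Before the pumps, the libraries themselves were compared. Their FPKM denominators were 27.7 to 29.8 in PV and 23.8 to 33.7 in Drd2, in units of 1e6 fragments. Pvalb was at 349 to 563 FPKM in PV and 10.4 to 99.5 FPKM in Drd2, and Drd2 was at 0 to 0.0132 FPKM in PV and 7.74 to 55.03 FPKM in Drd2, so both label genes followed the labels. Of 6 neuron markers none was at 0 in any group, and they summed to 1359 to 1617 FPKM in PV and 1115 to 1348 FPKM in Drd2. Among them Snap25 was higher and Tubb3 lower in every PV library than in any Drd2 library. Of 6 mammillary markers, which summed to 28.5 to 105 FPKM in PV and 96.8 to 144 FPKM in Drd2, Lmx1b was at 0 in all Drd2 libraries and at most 0.0876 FPKM in PV. The mean was lower in PV for 3 of the 6. Foxb1 alone did not overlap, at 4.19 to 24.0 FPKM in PV and 26.4 to 76.4 FPKM in Drd2. Library PV 7 stood apart with 8610 genes at 1 FPKM or more, against 10293 to 12398 in the other libraries. Genes of mitochondrial DNA took 9.62% to 31.3% of the FPKM total in PV and 3.74% to 5.20% in Drd2. PV libraries carried more haemoglobin: the 5 blood markers summed to 743 to 3204 FPKM in PV and 0 to 12.1 FPKM in Drd2, with Hbb-bt at 0 in all Drd2 libraries and Alas2 at most 3.56 FPKM in PV and 0.555 FPKM in Drd2. The 12 astrocyte markers summed to 98.5 to 297 FPKM in PV and 66.9 to 222 FPKM in Drd2, none at 0 throughout a group. The 10 oligodendrocyte markers summed to 68.3 to 320 FPKM in PV and 74.2 to 1386 FPKM in Drd2, and the 11 microglial markers to 456 to 1410 FPKM in PV and 23.9 to 3703 FPKM in Drd2. The 6 vascular markers summed to at most 2.49 FPKM in PV and 0.736 FPKM in Drd2, with Cldn5 at 0 in all 6 libraries.

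The pumps split into 3 patterns. The calcium pumps Atp2b2, Atp2b1 and Atp2b4 were at higher FPKM in every PV library than in any Drd2 library. The beta subunits Atp1b2 and Atp1b3 were at lower FPKM in every PV library than in any Drd2 library. Atp1b1 and Atp2b3 overlapped between the classes. Thus 5 of 7 members did not overlap, against 19.0% of all genes tested, 5.83% being higher and 13.1% lower in PV. Differences were tested by limma on log2(FPKM + 1), 2-sided, with Benjamini-Hochberg adjustment over all 11478 genes and a threshold of 0.05. None of the 7 members passed, against 0.261% of all genes (0.0436% higher and 0.218% lower in PV), and none did by limma voom on recovered reads. At an unadjusted p under 0.05 there were 4 members, Atp2b2, Atp1b2, Atp1b3 and Atp2b1, against 12.8% of all genes. In bulk libraries, fewer cells with a transcript and less transcript per cell cannot be told apart.

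**Figure D1:**
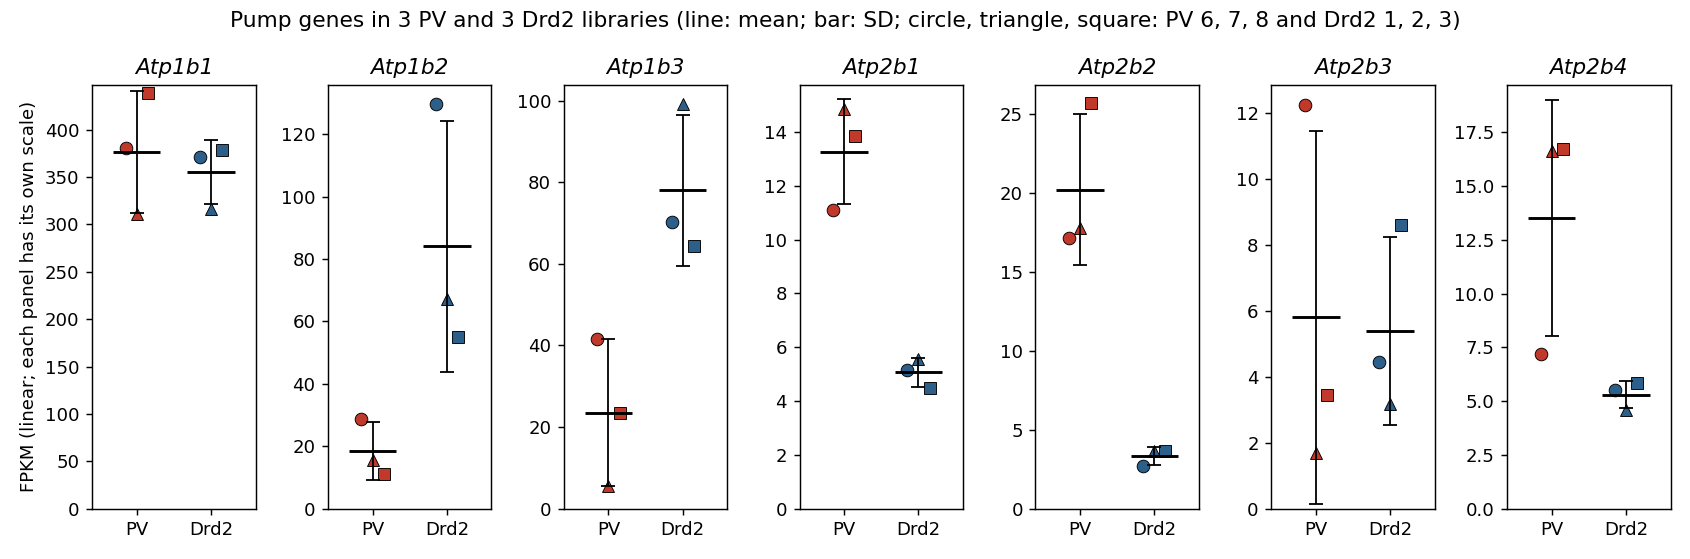
FPKM (linear axis from 0, a separate scale per gene) of the 7 pump genes in 3 PV libraries (left) and 3 Drd2 libraries (right), with the mean as a line and the SD as a bar; circles, triangles and squares are PV 6, 7 and 8 and Drd2 1, 2 and 3. Atp2b1, Atp2b2 and Atp2b4 are higher and Atp1b2 and Atp1b3 lower in all PV libraries than in any Drd2 library.

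Among the beta subunits, Atp1b1, the main beta isoform of neurons (ENSMUSG00000026576, mm10 chromosome 1, 164437109 to 164458355), was the most abundant of the 7 members in both classes. It was at 380, 311 and 439 FPKM in PV 6, PV 7 and PV 8, against 371, 317 and 378 FPKM in Drd2 1, Drd2 2 and Drd2 3. The Drd2 values all lay within the PV range. The mean was 377 ± 64.1 FPKM in PV and 355 ± 33.7 FPKM in Drd2 (SD, n = 3 per class). The difference was 0.07 ± 0.33 (SE) on the log2 scale, with a 95% interval of -0.67 to 0.82 (limma adjusted p = 0.945), and its sign turned after rescaling to TPM (-0.10). At this level it stood at or above 99.1% of tested genes in PV and 98.9% in Drd2. Its exons share 575 bases with exons of Nme7 on the opposite strand, and since the sources used here give no strand setting, reads there cannot be assigned; Nme7 itself was at most 0.177 FPKM in PV and 4.95 FPKM in Drd2.

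Atp1b2 encodes the beta isoform also known as the adhesion molecule on glia, which neurons can express too (ENSMUSG00000041329, chromosome 11, 69599736 to 69605942). It was at 28.7, 15.6 and 11.1 FPKM in PV 6, PV 7 and PV 8, against 130, 67.3 and 54.97 FPKM in Drd2 1, Drd2 2 and Drd2 3. The highest PV library was thus below the lowest Drd2 library, and Drd2 1 stood above the other Drd2 libraries. The means were 18.5 ± 9.15 FPKM in PV and 84.0 ± 40.1 FPKM in Drd2 (SD, n = 3 per class), 4.55-fold higher in Drd2. The log2 difference was -2.13 ± 0.51 (SE; limma adjusted p = 0.127, unadjusted p = 0.00211). Of the 12 astrocyte markers 8 were tested, and of all 12 only Aldh1l1 did not overlap, being at 0.992 FPKM or more in PV and at most 0.975 FPKM in Drd2. The astrocyte list was mixed: 7 of the 12 markers had the lower mean in PV and the other 5 the higher. Of all genes tested, 61.6% were below 0 on the log2 scale and 19.0% did not overlap. The list summed to 296, 185 and 98.5 FPKM in PV 6, PV 7 and PV 8, against 66.9, 222 and 222 FPKM in Drd2 1, Drd2 2 and Drd2 3. Of the 10 oligodendrocyte markers 9 had the lower mean in PV, and Mog, a myelin protein gene, did not overlap, at 0 to 2.54 FPKM in PV and 7.85 to 254 FPKM in Drd2 (limma unadjusted p = 0.00144, adjusted p = 0.108). That list summed to 304, 320 and 68.3 FPKM in PV 6, PV 7 and PV 8, against 383, 1386 and 74.2 FPKM in Drd2 1, Drd2 2 and Drd2 3. The part of either cell type in the difference of Atp1b2 was not tested.

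Atp1b3 encodes a widely expressed beta isoform (ENSMUSG00000032412, chromosome 9, 96332655 to 96364442). It was at 41.5, 5.53 and 23.5 FPKM in PV 6, PV 7 and PV 8, against 70.3, 99.1 and 64.4 FPKM in Drd2 1, Drd2 2 and Drd2 3. All PV values were below all Drd2 values, with PV 7 the lowest. The means were 23.5 ± 18.0 FPKM in PV and 78.0 ± 18.6 FPKM in Drd2 (SD, n = 3 per class), 3.32-fold higher in Drd2. The log2 difference was -2.03 ± 0.65 (SE; limma adjusted p = 0.227, unadjusted p = 0.0115). Without PV 7, the library with the fewest genes at 1 FPKM, it was -1.27 (limma adjusted p = 0.262). Of the 10 oligodendrocyte markers, 3 had an unadjusted limma p under 0.05, against 12.8% of all genes tested. These were Mog, Mag and Cnp, each with the lower mean in PV, and none of the 10 passed in limma. The part of the oligodendrocyte markers in the difference of Atp1b3 was not tested.

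The make-up of the beta subunits was then compared within each library, which does not depend on how a library is scaled. Atp1b1 made up 84.4%, 93.6% and 92.7% of the 3 genes' summed FPKM in PV 6, PV 7 and PV 8, against 65.0%, 65.6% and 76.0% in Drd2 1, Drd2 2 and Drd2 3. Its share was therefore higher in every PV library, by a mean of 21.4 percentage points (exact permutation p = 0.1, 2-sided, the smallest that 3 against 3 allows; 0.175 adjusted over the 7 shares computed). Atp1b2 made up 4.47% ± 2.02 in PV and 15.9% ± 6.09 in Drd2 (SD, n = 3 per class), without overlap. Atp1b3 made up 5.28% ± 3.78 in PV and 15.3% ± 4.57 in Drd2, also without overlap. Atp1b1 transcripts exceeded those of Atp1b2 by 13.2 to 39.5 times in PV and by 2.86 to 6.89 times in Drd2. The summed level of the 3 genes was 419 ± 76.0 FPKM in PV and 517 ± 47.0 FPKM in Drd2 (SD, n = 3 per class). This difference of -0.32 on the log2 scale (exact permutation p = 0.1, 2-sided) was -0.11 with median-of-ratios scaling (exact permutation p = 0.5), where the groups overlapped.

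**Figure D2:**
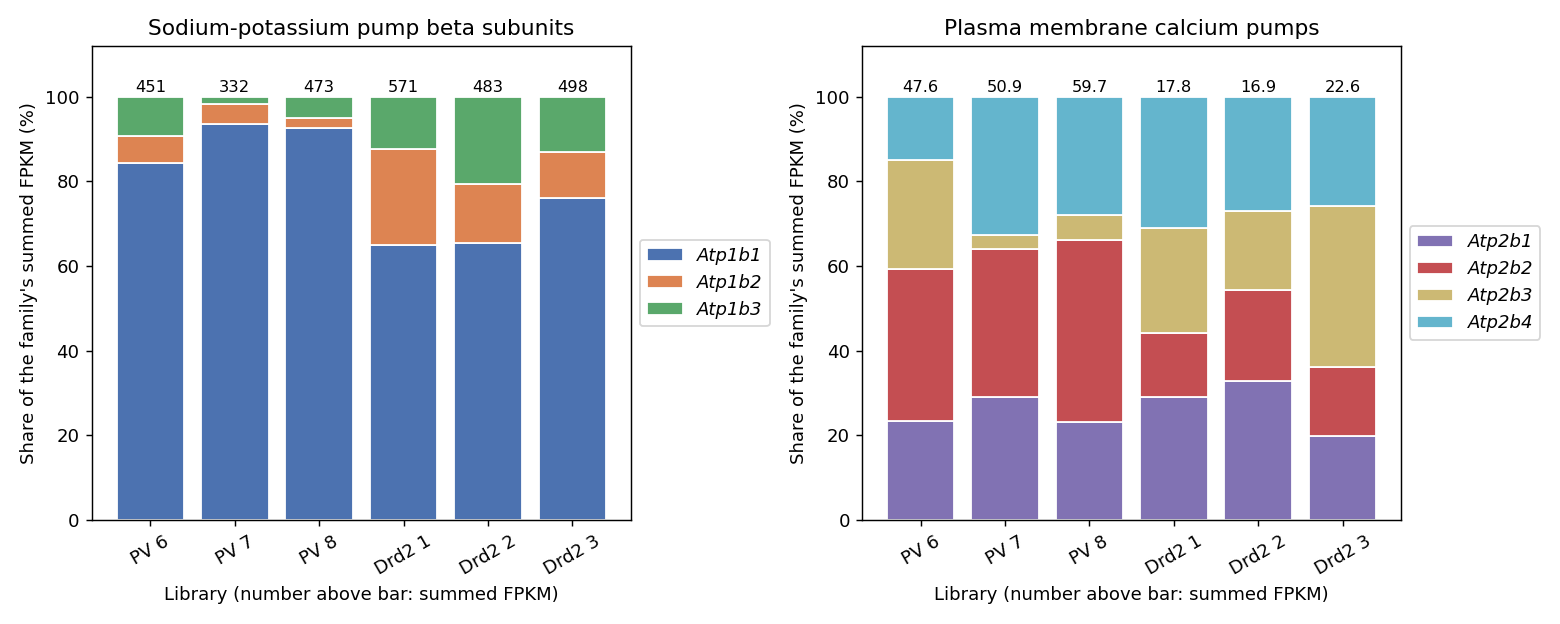
Share of each gene in the summed FPKM of its pump family (%, linear axis) in each library, PV at the left and Drd2 at the right, with the summed FPKM above each bar. Atp1b1 makes up 84.4% or more of the beta subunits in PV and at most 76.0% in Drd2; Atp2b2 makes up 34.9% or more of the calcium pumps in PV and at most 21.4% in Drd2.

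On the calcium side, Atp2b2 showed the widest difference of the 4 pumps. It encodes a neuronal pump with high activity even without calmodulin, abundant in cerebellar Purkinje cells and inner-ear hair cells (ENSMUSG00000030302, chromosome 6, 113743831 to 114042613). It was at 17.1, 17.8 and 25.7 FPKM in PV 6, PV 7 and PV 8, against 2.71, 3.62 and 3.67 FPKM in Drd2 1, Drd2 2 and Drd2 3. Each PV library exceeded every Drd2 library more than the libraries of either class differed among themselves. The means were 20.2 ± 4.76 FPKM in PV and 3.33 ± 0.541 FPKM in Drd2 (SD, n = 3 per class), a ratio of 6.06. The log2 difference was 2.28 ± 0.53 (SE; limma adjusted p = 0.118, unadjusted p = 0.00185), and it ranked 179 by p among all genes tested. In recovered reads, Atp2b2 had 6430, 6210 and 9179 in PV 6, PV 7 and PV 8 and 1152, 1370 and 1103 in Drd2 1, Drd2 2 and Drd2 3, so counting error is small beside the spread between libraries. It stood at or above 79.9% of tested genes in PV and 27.9% in Drd2.

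Atp2b1 encodes the pump found in nearly every tissue (ENSMUSG00000019943, chromosome 10, 98914406 to 99026143). It was at 11.1, 14.9 and 13.9 FPKM in PV 6, PV 7 and PV 8, against 5.15, 5.56 and 4.50 FPKM in Drd2 1, Drd2 2 and Drd2 3. Values within each class were close together and did not overlap. The means were 13.3 ± 1.94 FPKM in PV and 5.07 ± 0.532 FPKM in Drd2 (SD, n = 3 per class), a ratio of 2.62. The log2 difference was 1.23 ± 0.53 (SE; limma adjusted p = 0.370, unadjusted p = 0.0435).

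Atp2b4 encodes a pump of many tissues, red blood cells included (ENSMUSG00000026463, chromosome 1, 133699457 to 133801041). It was at 7.17, 16.6 and 16.7 FPKM in PV 6, PV 7 and PV 8, against 5.50, 4.59 and 5.83 FPKM in Drd2 1, Drd2 2 and Drd2 3. PV 6 lay just above the highest Drd2 library, while PV 7 and PV 8 stood far above. The means were 13.5 ± 5.48 FPKM in PV and 5.31 ± 0.642 FPKM in Drd2 (SD, n = 3 per class). The log2 difference was 1.12 ± 0.58 (SE; limma adjusted p = 0.455). The blood markers, which were also higher in PV, summed to 3002, 3204 and 743 FPKM in PV 6, PV 7 and PV 8. Atp2b4 was at 7.17, 16.6 and 16.7 FPKM in the same libraries. In Drd2 the blood markers summed to 0 to 12.1 FPKM, with Atp2b4 at 4.59 to 5.83 FPKM. The part of the blood markers in the difference between the classes was not tested.

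Atp2b3 encodes a pump largely restricted to the brain (ENSMUSG00000031376, chromosome X, 73503086 to 73571005). It was at 12.2, 1.69 and 3.46 FPKM in PV 6, PV 7 and PV 8, against 4.43, 3.16 and 8.61 FPKM in Drd2 1, Drd2 2 and Drd2 3. PV libraries held both the highest and the lowest value. The means were 5.80 ± 5.65 FPKM in PV and 5.40 ± 2.85 FPKM in Drd2 (SD, n = 3 per class). The difference on the log2 scale was -0.15 ± 0.77 (SE), with a 95% interval of -1.88 to 1.58 (limma adjusted p = 0.954). That interval includes differences as large as those of Atp2b1 and Atp2b4, and the sign turned with quantile normalization (0.32) and without PV 7 (0.35).

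Together the 4 calcium pumps summed to 47.6, 50.9 and 59.7 FPKM in PV 6, PV 7 and PV 8, against 17.8, 16.9 and 22.6 FPKM in Drd2 1, Drd2 2 and Drd2 3. Every PV library was above every Drd2 library. The log2 difference of the sums was 1.47 ± 0.16 (SE; exact permutation p = 0.1, 2-sided, the smallest possible), and 1.29 to 1.67 over the scalings and left-out libraries. Atp2b2 made up 35.9%, 34.9% and 43.0% of the sum in PV 6, PV 7 and PV 8, against 15.2%, 21.4% and 16.2% in Drd2 1, Drd2 2 and Drd2 3. Its share was higher in every PV library, by a mean of 20.3 percentage points (exact permutation p = 0.1, 2-sided; 0.175 adjusted over the 7 shares). Atp2b3 made up 25.7%, 3.31% and 5.80% in PV 6, PV 7 and PV 8, against 24.9%, 18.7% and 38.1% in Drd2 1, Drd2 2 and Drd2 3. PV 6 alone of the PV libraries held a share of Atp2b3 within the Drd2 range (exact permutation p = 0.3, 2-sided; 0.42 adjusted). The shares of Atp2b1, 25.2% ± 3.41 in PV and 27.2% ± 6.63 in Drd2, and of Atp2b4, 25.2% ± 9.10 in PV and 27.9% ± 2.66 in Drd2 (SD, n = 3 per class), overlapped. Atp2b2 was at 1.20 to 1.85 times the FPKM of Atp2b1 in PV libraries and at 0.526 to 0.815 times in Drd2 libraries.

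The order of levels also differed. In PV, Atp1b1 came first, followed by Atp1b3, Atp2b2, Atp1b2, Atp2b4, Atp2b1 and Atp2b3. Neighbours were taken to differ beyond their spread where the log2 difference within a library had 1 sign in all 3 libraries and a mean above its SD. By that measure only Atp1b1 stood apart from its neighbour in PV, and the other 5 steps lay within the spread. In Drd2 the order was Atp1b1, Atp1b2, Atp1b3, Atp2b3, Atp2b4, Atp2b1 and Atp2b2. There the steps from Atp1b1 to Atp1b2, from Atp1b3 to Atp2b3 and from Atp2b1 to Atp2b2 exceeded the spread, and Atp1b2 and Atp1b3 did not differ beyond it, nor did Atp2b3, Atp2b4 and Atp2b1 step by step. By its mean of 3.33 FPKM, Atp2b2 was the lowest of the 7 in Drd2, although in Drd2 2 it was at 1.15 times the FPKM of Atp2b3.

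**Figure D3:**
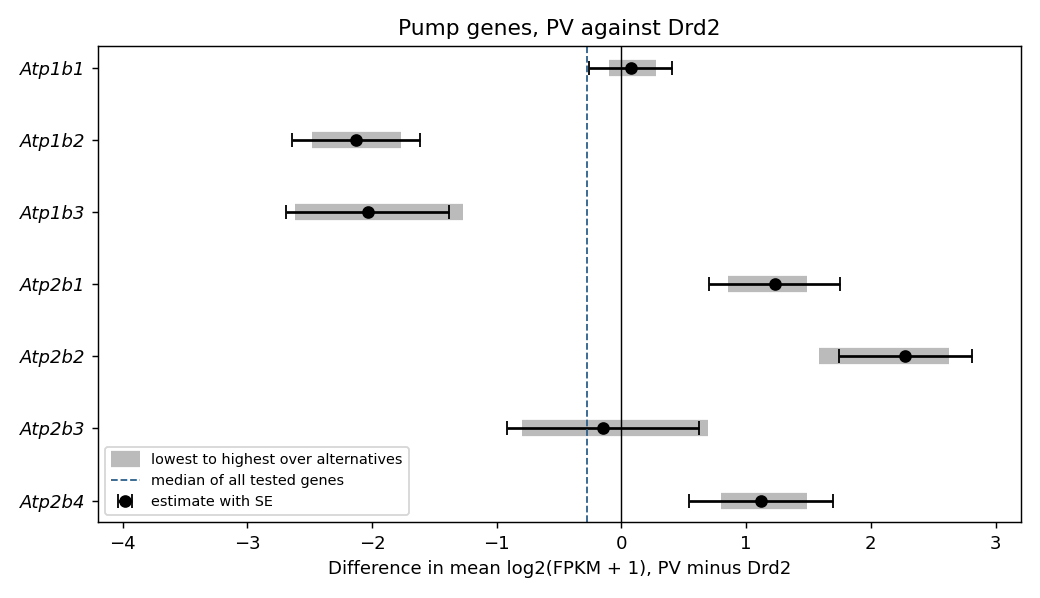
Difference in mean log2(FPKM + 1), PV minus Drd2, of each pump gene with its SE (points and bars), the lowest and highest value over the alternative settings (grey) and the median of all tested genes (dashed line, -0.28). Atp2b1, Atp2b2 and Atp2b4 lie to the right of 0 and Atp1b2 and Atp1b3 to the left over all alternatives, while Atp1b1 and Atp2b3 cross 0. For genes without overlap, only the scalings and voom could have turned the sign.

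Over the whole table the median log2 difference was -0.28, and it ran from -0.49 after rescaling to TPM to 0.05 with quantile normalization. The 7 members had a median of 0.07, with 4 above 0 and 3 below. The 4 calcium pumps had a median of 1.17 and the 3 beta subunits of -2.03. Under each scaling run, which were TPM, median of ratios, quantile and rescaling over nuclear protein-coding genes, Atp2b1, Atp2b2 and Atp2b4 remained above 0 and Atp1b2 and Atp1b3 below it. Without PV 7 and Drd2 3 together, the difference was 2.41 for Atp2b2, 1.08 for Atp2b1, 1.00 for Atp2b4, -2.32 for Atp1b2 and -1.39 for Atp1b3. None of these passed the threshold in limma in any of the 18 alternatives, and the lowest adjusted p was 0.0683 for Atp2b2 with quantile normalization.

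The small FXYD proteins regulate the sodium-potassium pump by binding beside it. Of 8 genes listed, the FXYD regulators and Atp1b4, 5 were tested, all 5 were below 0 on the log2 scale, against 61.6% of all genes tested, and none passed in limma, against 0.261%. The classes did not overlap for 2 of the 5, both lower in PV, against 13.1% of all genes, and 2 had an unadjusted p under 0.05, against 12.8%. Their median was -0.94, and all 5 were below 0 under each scaling run. The smallest of the 5 differences (-0.35) turned without PV 7 (0.12) and without Drd2 1 (0.23). That gene was low, with a mean of 1.09 FPKM in PV and 1.90 FPKM in Drd2. A listed gene that failed the filter went the other way, with a mean of 2.56 FPKM in PV and 0.304 FPKM in Drd2, and overlapped. Fxyd7, a brain-specific regulator, was at 30.3, 0 and 31.6 FPKM in PV 6, PV 7 and PV 8, against 730, 442 and 281 FPKM in Drd2 1, Drd2 2 and Drd2 3. Even the highest PV library was far below the lowest Drd2 library. The 0 fell in PV 7, the library with the fewest genes at 1 FPKM or more (8610), and the part of that in the 0 was not tested. The log2 difference was -5.48 ± 1.16 (SE; limma adjusted p = 0.0895), and it passed in limma without PV 7 (-3.82, adjusted p = 0.0209), without PV 7 and Drd2 3 together (0.0405), with array weights (0.0340) and with a pseudocount of 5 FPKM (0.0212). Fxyd6, a regulator found in brain and inner ear, was at 6.58, 1.18 and 10.1 FPKM in PV 6, PV 7 and PV 8, against 46.3, 80.6 and 41.3 FPKM in Drd2 1, Drd2 2 and Drd2 3. It too did not overlap (log2 difference -3.26 ± 0.66, SE; limma adjusted p = 0.0772, and 0.0409 with array weights and 0.0411 with a pseudocount of 5 FPKM). Fxyd1, known as phospholemman, was at 13.1 ± 13.4 FPKM in PV and 19.6 ± 3.59 FPKM in Drd2 (SD, n = 3 per class) and overlapped. Atp1b4, a muscle protein that is not a working pump subunit in mammals, was listed at 0 in all 6 libraries.

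The calcium pumps pair with basigin or neuroplastin in the membrane and bind calmodulin. Nptn, which encodes neuroplastin, Bsg and Calm2 did not pass in limma, and none of them had an unadjusted p under 0.05. The sign of the difference of Nptn (-0.16) turned with median-of-ratios scaling, quantile normalization, rescaling over nuclear protein-coding genes and without PV 7 and Drd2 3 together. Bsg, which encodes basigin, was at 321, 239 and 226 FPKM in PV 6, PV 7 and PV 8, against 479, 337 and 437 FPKM in Drd2 1, Drd2 2 and Drd2 3. Its classes did not overlap, with all PV libraries the lower (log2 difference -0.67 ± 0.35, SE; limma adjusted p = 0.455). Calm2, a calmodulin gene, was at 1378, 12837 and 4004 FPKM in PV 6, PV 7 and PV 8, against 2855, 2000 and 2572 FPKM in Drd2 1, Drd2 2 and Drd2 3. Its classes overlapped, and PV 7 alone decided the direction. The log2 difference of 0.76 turned to -0.06 without PV 7, to -0.025 without PV 7 and Drd2 3 together and to -0.54 with quantile normalization.

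Other routes of calcium removal and uptake were covered by 21 listed genes, of which 13 were tested, 9 above and 4 below 0, with a median of 0.31 (8 above with TPM and 10 with quantile normalization). None passed in limma (0.261% of all genes did), and 4 had an unadjusted p under 0.05 (12.8% of all genes). Groups did not overlap for 3 of the 13 with PV higher, against 5.83% of all genes, and for 2 with PV lower, which is near the 13.1% of all genes. Slc24a2, a potassium-dependent sodium-calcium exchanger of neurons, was at 34.3, 34.2 and 42.1 FPKM in PV 6, PV 7 and PV 8, against 5.87, 8.75 and 6.86 FPKM in Drd2 1, Drd2 2 and Drd2 3. All PV libraries were well above all Drd2 libraries, with a log2 difference of 2.22 ± 0.45 (SE; limma adjusted p = 0.0802). It passed in limma with voom on recovered reads (adjusted p = 0.0328), with quantile normalization (0.0474) and with array weights (0.0499). Slc24a4, a relative from the same exchanger family, was listed at 0 in all 3 PV libraries, against 20.7, 8.98 and 4.29 FPKM in Drd2 1, Drd2 2 and Drd2 3 (limma adjusted p = 0.0851). It passed the filter of 1 FPKM in 3 libraries only through the Drd2 libraries. Its lack of overlap was thus fixed by the filter, though it is counted among the 2 with PV lower. In the values listed, Slc24a2 was the higher in PV and Slc24a4 the higher in Drd2. Atp2a2, the calcium pump of the endoplasmic reticulum, was at 48.0, 73.9 and 87.8 FPKM in PV 6, PV 7 and PV 8, against 33.0, 27.1 and 20.03 FPKM in Drd2 1, Drd2 2 and Drd2 3. It was higher in every PV library (log2 difference 1.34 ± 0.43, SE; limma adjusted p = 0.224).

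Transporters of potassium, chloride and bicarbonate draw on the gradients the pumps make. Of 15 listed genes 10 were tested, 3 above and 7 below 0, with a median of -0.11 (8 above with quantile normalization, with a median of 0.30), and none passed in limma (0.261% of all genes did). An unadjusted p under 0.05 was found for 1 of the 10, near the 12.8% of all genes. Groups did not overlap for 1 of the 10 with PV higher, against 5.83% of all genes, and for 2 with PV lower, against 13.1%. Slc12a2, which brings in sodium, potassium and chloride, was at 0.442 ± 0.409 FPKM in PV and 2.78 ± 1.33 FPKM in Drd2 (SD, n = 3 per class) and did not overlap (limma adjusted p = 0.359). Its PV values were low, at 0.0628 to 0.875 FPKM. With all PV libraries under 1 FPKM, it passed the filter of 1 FPKM in 3 libraries only through the Drd2 libraries. Its lack of overlap was thus fixed by the filter, though it is counted among the genes with PV lower. Slc4a10, a sodium-driven bicarbonate transporter, was at 7.27 ± 1.26 FPKM in PV and 2.99 ± 2.09 FPKM in Drd2, also without overlap (limma unadjusted p = 0.108, adjusted p = 0.496).

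**Figure D4:**
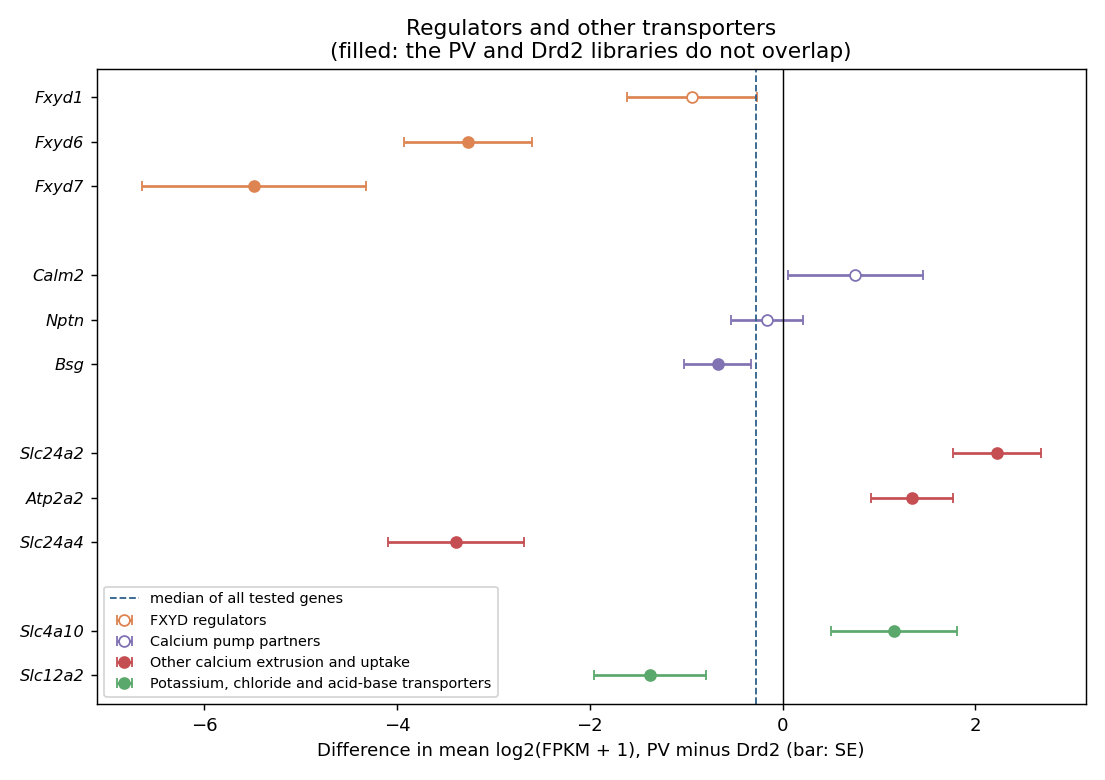
Difference in mean log2(FPKM + 1), PV minus Drd2, with its SE, for the tested genes named above from 4 lists around the pumps, with filled points where the libraries of the classes do not overlap. Slc24a2 and Atp2a2 lie to the right of 0 and Fxyd7, Slc24a4 and Fxyd6 to the left. The dashed line is the median of all tested genes (-0.28). Slc24a4 and Slc12a2 passed the filter only through the Drd2 libraries, which fixed their lack of overlap.

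For each pump, the genes with the most similar profile over the 6 libraries were sought among 4053 named genes with a mean of at least 10 FPKM, by Pearson's r of log2(FPKM + 1). With 6 points in 2 classes that share their libraries, r is a description only. Atp2b2 was most like Slc24a2 (r = 0.994), Nefl (0.988) and Scrn1 (0.988). Atp2b1 was most like Ptprd (0.988), Acyp1 (0.983) and Myo5a (0.983), and Atp2b4 was most like Kdm1a (0.993), Eif1ax (0.990) and Ndufb3 (0.986). Atp1b3 followed Tubb4a (0.998), Ache (0.998) and Dalrd3 (0.996), and Atp1b2 followed Basp1 (0.990), Derl1 (0.987) and Rpn1 (0.987). For Atp2b3 the closest were Apba1 (0.946), Cdc42se2 (0.940) and Vamp8 (0.940), and for Atp1b1 they were Get3 (0.981), Rit1 (0.974) and Zfp445 (0.968). The nearest profile was less close for Atp2b3 than for any other member.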

How the data were processed

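The deposited table holds FPKM values made by the authors. STAR was used, per the submitters' processing notes, which name the builds hg38, GRCh38 and mm10; no gene counter, annotation or strand setting is given in the sources used here. Positions, exon lengths and overlaps came from GENCODE M21 (mm10), which matched 52081 of 55414 gene identifiers. The members' FPKM times exon length fell on whole reads in every library (225 to 38549 reads), so counting error is small beside the spread between libraries; reads without molecular identifiers are not independent molecules. Across all genes, 97.9% to 98.8% of values of up to 20 reads lay within 0.01 read of a whole number.

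Genes reaching 1 FPKM in 3 or more of the 6 libraries were compared, PV minus Drd2. The test was limma 3.58.1 (R 4.3.3) on log2(FPKM + 1) with an intensity trend, which was also tested on simulated data. The simulated noise was independent between libraries and held none of the library differences seen here, so that trial does not cover them. Differences of log2(FPKM + 1) understate the change of weakly expressed genes. Sums and shares within a pump family were compared by exact permutation tests (scipy 1.17.1). The libraries of a class are biological replicates by the series' design text, with no pairing between classes.

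Members and lists were chosen with earlier results of these data known. The alpha subunit genes are not members and, like some genes of the lists, are not reported here. Besides the members and the label genes, the text names up to 3 genes of each list by smallest p, and the 3 genes most like each member; Nptn, Atp1b4, Nme7 and single markers are named besides. Alternatives were other pseudocounts, filters, scalings and variance models, array weights, voom on recovered reads and leaving out each library. Added after seeing the data were a rescaling to nuclear protein-coding genes and a fit without PV 7 and Drd2 3.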

Additional observations from a re-analysis of the deposited data

How the results depend on the processing

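No paired analysis was possible because the libraries of the groups share no number. With the settings used, 30 genes of the whole table passed in limma; there were 4 with a pseudocount of 0.1 FPKM, 68 with a pseudocount of 5 FPKM, 0 with no filter on low values (26063 genes tested, 1509 at an unadjusted p under 0.05), 68 with quantile normalization, 46 with no intensity trend, 105 with array weights, 15 after rescaling over nuclear protein-coding genes and 18 without PV 7 and Drd2 3 together, and 1 to 56 without 1 library. The causes were not tested. The log2 differences of Atp1b2, Atp1b3, Atp2b1, Atp2b2 and Atp2b4 kept their sign in all 18 alternatives and none passed in any. Since the classes do not overlap for these genes, only the scalings and voom could have turned a sign. The other alternatives could change only the size and the p. Atp2b2 ran from 1.58 to 2.62, Atp2b1 from 0.86 to 1.49, Atp2b4 from 0.80 to 1.49, Atp1b2 from -2.49 to -1.77 and Atp1b3 from -2.62 to -1.27. Atp1b1 turned after rescaling to TPM (-0.10) and ran from -0.043 to 0.21 without 1 library (-0.0065 without Drd2 2). Atp2b3 turned with median-of-ratios scaling (0.0037), quantile normalization (0.32), array weights (0.25), rescaling over nuclear protein-coding genes (0.0075) and without PV 7 and Drd2 3 together (0.69), and ran from -0.80 to 0.35 without 1 library. Its low FPKM left it untested at 5 FPKM in 3 libraries. The difference in share ran from -5.67 to 0.793 percentage points for Atp2b1 and from -6.40 to 2.37 for Atp2b4 without 1 library. With 3 libraries a class, no permutation test here can reach 0.05.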
